A study of Mus musculus with 12 samples.

Results

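The genes described here make triglyceride, coat the lipid droplets in which it is stored, and start its breakdown. They were taken from a fixed list of 10 symbols, through probe sets with a single gene symbol in the platform annotation and, where a gene has several, the one with the highest mean. This gave 9 of the 10 genes, each with 1 such probe set, out of 19938 genes in all: Gpat3, Lpin1, Lpin2, Lpin3, Dgat1, Dgat2, Plin2, Plin3 and Pnpla2. Acsl1, which encodes a fatty acid activating enzyme, had no such probe set and was not analysed here. The levels are log2 expression values from 12 microarrays of primary microglia, macrophage-like cells that live in the brain, from C57BL/6J mice of postnatal day 7, selected with CD11b beads and kept in culture for 3 days. Every culture was then treated for 6 h, and each treatment was applied to cells of 3 litters, which are the replicates (n = 3 arrays per group). The 4 groups were 10 µM oligomeric Aβ42 with 100 nM AE1-329, Aβ42 alone with the ethanol vehicle of AE1-329 at 0.001%, AE1-329 alone with the DMSO vehicle of Aβ42 at 0.4%, and both vehicles without either agent. Aβ42 is a peptide that aggregates into the plaques of Alzheimer's disease, and AE1-329 is an agonist of EP4, a prostaglandin E2 receptor that raises cyclic AMP. The cells are isolated postnatal microglia in culture medium with serum, without the other cells of the brain around them.

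Triglyceride is built on glycerol 3-phosphate. Glycerol-3-phosphate acyltransferases such as GPAT3 add the first fatty acid, a second acylation gives phosphatidate, the lipins remove its phosphate to give diacylglycerol, and DGAT1 or DGAT2 adds the last fatty acid. Perilipins such as PLIN2 and PLIN3 coat the droplet, and the lipase ATGL, encoded by Pnpla2, starts its hydrolysis. Macrophages and microglia store lipid in such droplets during inflammatory activation and after taking up lipid-rich material.

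All 9 measured of 10 microglia markers lay above the median level of all genes (7.41), whereas 23 of 30 markers of astrocytes, oligodendrocytes, neurons, vessels, other macrophages and neutrophils lay below it. Below it were 3 of 6 astrocyte markers and 3 of 4 markers of other macrophages and monocytes. The macrophage marker Mrc1 averaged 10.78, above the lowest microglia marker, Aif1, at 8.17. Among the vessel markers, the summed level of the 5 genes was 36.9 to 38.3 log2 units in AE1-329 alone against 35.3 to 36.2 in vehicle. Pecam1 (1.22, adjusted p = 5.23e-07) and Kdr (0.64, adjusted p = 0.00144) rose, while Cldn5, a defining gene of brain endothelium, averaged 6.81 in AE1-329 alone and 7.00 in vehicle, and its change did not pass. Cdh5 (0.05, adjusted p = 0.9 in limma) and Pdgfrb (0.14, adjusted p = 0.795) did not pass either. With Aβ42 alone Kdr fell (-0.50, adjusted p = 0.00262 in limma), and no other vessel marker passed. With AE1-329 added to Aβ42, Pecam1 rose by 0.90 (adjusted p = 7.66e-06). No other vessel marker passed there, with Kdr at 0.00 (adjusted p = 0.999 in limma). With both agents against AE1-329 alone, Kdr (-1.14, adjusted p = 2.77e-06) and Pecam1 (-0.31, adjusted p = 0.0104) fell, and the interaction of Kdr was -0.64 (adjusted p = 0.0458). The summed level of the 9 microglia markers was 94.9 to 95.4 with both agents, 96.6 to 97.1 with Aβ42 alone, 96.4 to 96.9 with AE1-329 alone and 97.7 to 98.1 in vehicle. Of these 9 markers 4 fell and 2 rose with Aβ42 alone, and 3 fell and 1 rose with AE1-329 alone. Over all genes 14.8% fell and 10.7% rose with Aβ42 alone, and 5.45% fell and 4.71% rose with AE1-329 alone. Among genes above the median level tested alone, 47.4% and 23.1% were called in either direction. The part of vessel cells or of a shift in microglia markers in the results was not tested. Between replicates the median standard deviation was 0.063 to 0.066 log2 units in the treated groups and 0.109 in vehicle, where replicate 1 was the lowest of the 3 arrays for 7 of the 9 genes. In cultures of this kind, a lower value can come from less RNA per cell or from fewer cells of a type, which cannot be told apart.

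Dgat1, Lpin1, Lpin2 and Pnpla2 are the genes called with AE1-329, all 4 higher both with and without Aβ42. For Pnpla2 both calls were lost without some single arrays, as given below. The sequences before the starts of Lpin2, Lpin1 and Pnpla2 are shown because these genes were called. Dgat1 and Dgat2 are named only, because the promoter sequences used here held no entry for either, so their windows were not searched. Sequences are from a table of RefSeq promoters on GRCm38.p6, in which 7 of the 10 listed genes were matched, and cover the 250 bases before the start, 5′ to 3′ on the strand of the gene. They lie at chr17:71183282-71183531 (plus strand, the first of 3 Lpin2 starts), chr12:16610967-16611216 (minus strand) and chr7:141454938-141455187 (plus strand). Capitals mark the cAMP response element core TGACG, the E-box CACGTG and the NF-kB consensus, searched on both strands.
Lpin2: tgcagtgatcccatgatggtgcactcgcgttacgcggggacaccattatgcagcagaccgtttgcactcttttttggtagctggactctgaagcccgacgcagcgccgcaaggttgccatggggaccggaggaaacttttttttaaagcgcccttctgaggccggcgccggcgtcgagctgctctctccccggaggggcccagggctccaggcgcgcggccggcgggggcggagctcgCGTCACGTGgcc
Lpin1: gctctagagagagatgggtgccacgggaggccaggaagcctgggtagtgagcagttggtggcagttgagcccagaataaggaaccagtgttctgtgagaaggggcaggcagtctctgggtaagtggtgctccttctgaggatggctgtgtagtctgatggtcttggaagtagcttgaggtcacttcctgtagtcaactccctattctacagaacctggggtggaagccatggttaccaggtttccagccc
Pnpla2: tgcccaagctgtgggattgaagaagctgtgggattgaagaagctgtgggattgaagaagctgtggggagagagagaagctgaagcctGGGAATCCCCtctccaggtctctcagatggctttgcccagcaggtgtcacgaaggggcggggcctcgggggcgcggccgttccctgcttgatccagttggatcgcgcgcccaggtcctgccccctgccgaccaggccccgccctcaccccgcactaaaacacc
The first Lpin2 window held a cAMP response element core, on the opposite strand and so read as CGTCA here, that began 12 bases before the start and overlapped an E-box that began 9 bases before it. The core is present in 17.8% and the E-box in 6.02% of all 32851 windows of this length. Of the 10 windows of the listed genes 2 held the core. The other was that of Gpat3, which passed in none of the 6 comparisons, where it began 152 bases before the start. The Pnpla2 window held an NF-kB consensus, as do 3.90% of all windows, and the Lpin1 window held none of these motifs. The second Lpin2 window, which is not shown, also held an NF-kB consensus. The full element TGACGTCA, found in 1.55% of all windows, had no match in the 10 windows of the listed genes. A match or its absence in such a window is a description of letters and says nothing about binding.

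The plot of levels by array shows the 9 genes in the 4 groups. Dgat1, Lpin1 and Lpin2 had the widest ranges of group means, at 1.57, 2.81 and 0.90 log2 units, and Dgat2, Lpin3 and Gpat3 the narrowest, at 0.17, 0.16 and 0.06.

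**Figure D1:**
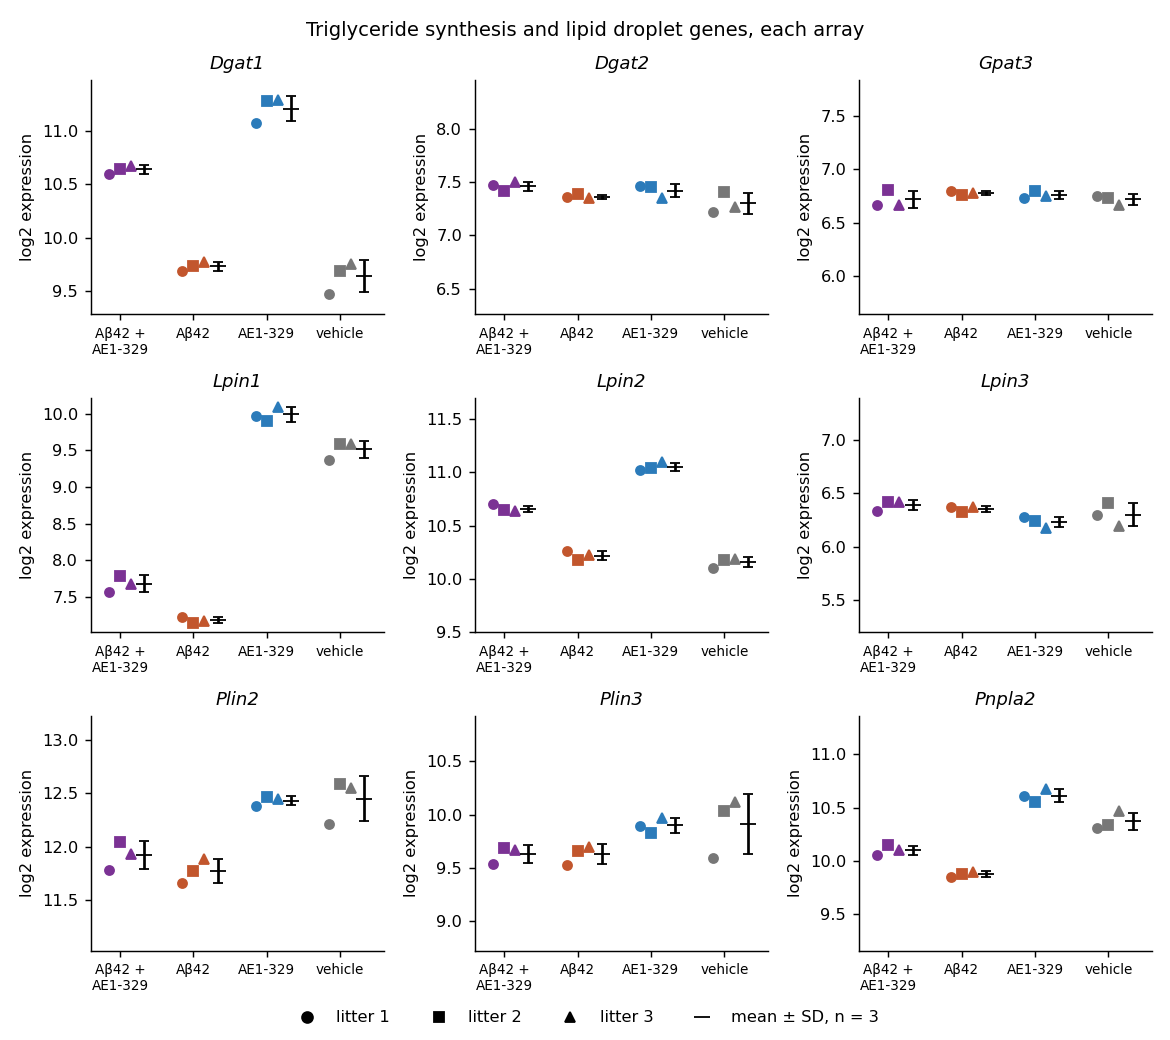
Log2 expression of the 9 genes on each of 12 arrays, with Aβ42 and AE1-329 together, Aβ42 alone, AE1-329 alone and vehicle from left to right. Symbols mark the litter and bars the mean ± SD (n = 3). Every vertical axis spans 2.2 log2 units except that of Lpin1, which spans 3.2, and the Lpin1 arrays with Aβ42 lie between 7.14 and 7.79, below all arrays without it.

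The first comparison asked how Aβ42 alone changed these genes. Lpin1, the gene of the phosphatidate phosphatase lipin 1, fell 5.04-fold, Plin2, the gene of the main droplet coat protein of most cells, fell 1.61-fold, and Pnpla2 fell 1.41-fold. The other 6 genes, among them both DGAT genes, did not pass. Thus 3 of 9 genes fell, where 14.8% of all genes did so in limma's test at an adjusted p below 0.05, and 25.6% of all genes changed in either direction. The median change of the 9 genes was 0.06 on the log2 scale, against 0.02 over all genes.

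Lpin1 had 7.22, 7.14 and 7.17 log2 units with Aβ42 alone, against 9.37, 9.58 and 9.58 in vehicle. The groups were far apart, and the change was -2.33 ± 0.08 (limma estimate ± SE, adjusted p = 1.56e-10), lower in 3 of 3 litters. The levels with Aβ42 alone lie below the median of all genes, and how far they lie above background is unknown. Plin2 had 11.66, 11.77 and 11.88 with Aβ42 alone, against 12.21, 12.59 and 12.55 in vehicle. All 3 Aβ42 arrays lay below all vehicle arrays, and the change was -0.68 ± 0.10 (adjusted p = 0.000161 in limma). Pnpla2 had 9.85, 9.88 and 9.90 with Aβ42 alone, against 10.31, 10.34 and 10.47 in vehicle. These groups did not overlap either, and the change was -0.50 ± 0.06 (adjusted p = 1.68e-05 in limma), lower in 3 of 3 litters.

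Plin3, the gene of a droplet coat protein that moves between cytosol and nascent droplets, had 9.53, 9.66 and 9.70 with Aβ42 alone, against 9.59, 10.03 and 10.12 in vehicle. Vehicle replicate 1 lay within the range of the Aβ42 arrays, and the change of -0.29 ± 0.11 did not pass (adjusted p = 0.0848 in limma). With the litter as a block it passed (-0.29, adjusted p = 0.0233), and without vehicle replicate 1 it was -0.45 (adjusted p = 0.0005). The remaining differences between Aβ42 alone and vehicle were small. They were 0.09 ± 0.08 for Dgat1 and 0.07 ± 0.05 for Lpin2, with 95% intervals of -0.08 to 0.26 and -0.04 to 0.17. Dgat2 (0.07), Lpin3 (0.06) and Gpat3 (0.06) had estimates of the same size, with SEs between 0.05 and 0.06.

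The second comparison asked what AE1-329 alone did to the unstimulated cells. Dgat1, which encodes one of the enzymes of the final acylation, rose 2.98-fold, Lpin2, the gene of a second phosphatidate phosphatase, rose 1.86-fold, Lpin1 rose 1.39-fold and Pnpla2 rose 1.18-fold. The other 5 genes did not pass. A rise was thus called for 4 of 9 genes, where 4.71% of all genes rose, 5.45% fell and 10.2% changed in either direction. The median change was 0.12 for the 9 genes and -0.01 for all genes.

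Dgat1 had 11.07, 11.28 and 11.29 log2 units with AE1-329 alone, against 9.47, 9.69 and 9.75 in vehicle. Every AE1-329 array was more than 1 log2 unit above every vehicle array, and the change was 1.57 ± 0.08 (adjusted p = 7.92e-08 in limma). Within litters it was 1.6, 1.58 and 1.54. Lpin2 had 11.02, 11.04 and 11.10 with AE1-329 alone, against 10.10, 10.18 and 10.19 in vehicle, a change of 0.90 ± 0.05 (adjusted p = 1.88e-07 in limma). The groups did not overlap, and the litters gave 0.92, 0.87 and 0.91. Mutations of LPIN2 in humans cause an inflammatory bone and skin disease, and the protein is the lipin of many tissues with little lipin 1.

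Lpin1 had 9.96, 9.90 and 10.09 with AE1-329 alone, and the vehicle values given above were all lower (0.48 ± 0.08, adjusted p = 0.00143 in limma). Pnpla2 had 10.61, 10.55 and 10.67 with AE1-329 alone, above all vehicle arrays (0.24 ± 0.06, adjusted p = 0.0148 in limma). This small rise was seen in 3 of 3 litters. Its call ended without replicate 1 (adjusted p = 0.0511) or replicate 3 (adjusted p = 0.0712) of AE1-329 alone, and with only the 2 groups in the fit (adjusted p = 0.11). The coat genes gave -0.02 ± 0.10 for Plin2 and -0.02 ± 0.11 for Plin3, with 95% intervals of -0.24 to 0.19 and -0.26 to 0.23. Dgat2, whose enzyme carries out the same reaction as DGAT1, had 7.46, 7.45 and 7.35 with AE1-329 alone, against 7.22, 7.41 and 7.27 in vehicle. The groups overlapped, and the difference was 0.12 ± 0.06 with a 95% interval of -0.01 to 0.25. Dgat2, Lpin3 and Gpat3 had mean levels below the median of all genes, and how far their signal lies above background is unknown.

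**Figure D2:**
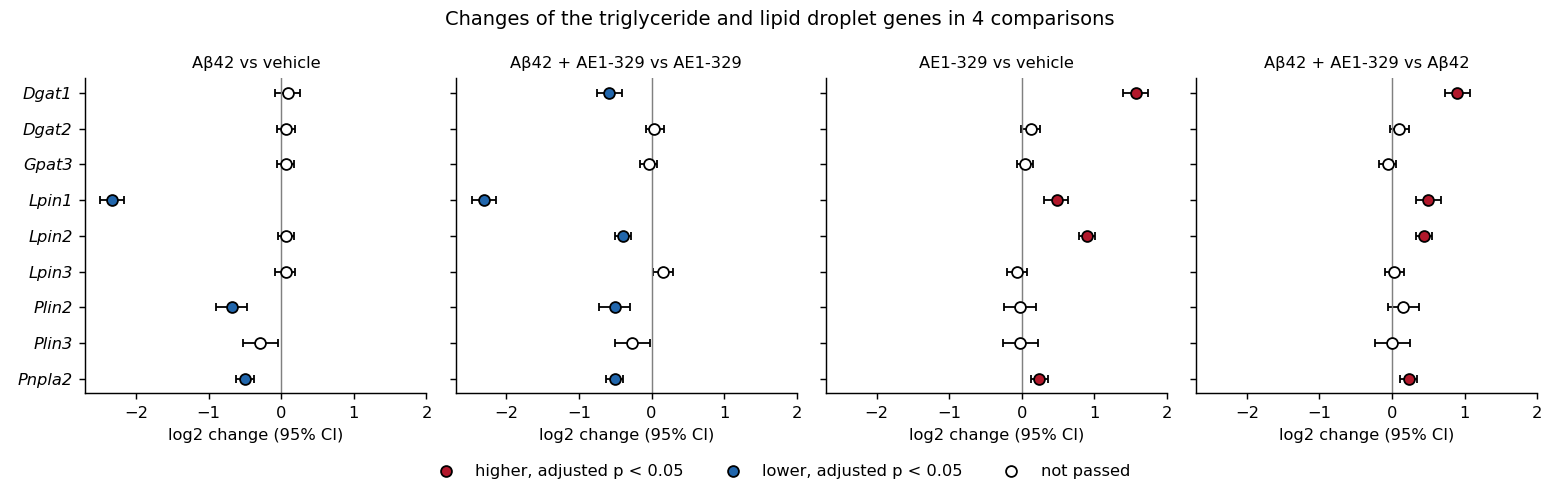
Log2 changes of the 9 genes with 95% confidence intervals in 4 comparisons, where red marks genes called higher, blue genes called lower and white genes that did not pass. With Aβ42 the called genes lie left of 0, led by Lpin1 at -2.33 and -2.31, and with AE1-329 they lie right of 0, led by Dgat1 at 1.57 and 0.90.

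The third comparison asked what AE1-329 did to cells that also received Aβ42. The same 4 genes were called and all rose: Dgat1 1.87-fold, Lpin1 1.41-fold, Lpin2 1.35-fold and Pnpla2 1.17-fold. In this comparison 5.99% of all genes rose and 11.0% changed in either direction, and the median change was 0.15 for the 9 genes and -0.02 for all genes. Dgat1 had 10.60, 10.64 and 10.67 log2 units with both agents, against 9.69, 9.73 and 9.77 with Aβ42 alone. The difference of 0.90 ± 0.08 (adjusted p = 8.17e-06 in limma) was 0.91, 0.91 and 0.90 in the litters. Lpin2 had 10.70, 10.65 and 10.64 with both agents, against 10.26, 10.18 and 10.23 with Aβ42 alone (0.44 ± 0.05, adjusted p = 8.55e-05 in limma). Again the groups did not overlap.

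Lpin1 had 7.56, 7.79 and 7.67 with both agents, all above the Aβ42-alone arrays (0.50 ± 0.08, adjusted p = 0.000907 in limma). On the measured values this is 21.4% of the log2 fall with Aβ42 alone (15.8%, 26.7% and 21.0% in the litters), a share that rests on the low levels with Aβ42 alone. Both differences use the same arrays of Aβ42 alone, and Lpin1 also rose by 0.48 ± 0.08 with AE1-329 in cells without Aβ42. Pnpla2 had 10.06, 10.15 and 10.10 with both agents, which was above all 3 arrays of Aβ42 alone (0.23 ± 0.06, adjusted p = 0.0177 in limma). That call ended without replicate 2 (adjusted p = 0.0747) or 3 (0.0582) of the combined treatment, and without replicate 1 (0.0728) or 2 (0.0568) of Aβ42 alone. Plin2 had 11.78, 12.04 and 11.93 with both agents and overlapped with Aβ42 alone. Its difference of 0.15 ± 0.10 did not pass (95% interval -0.06 to 0.37), and Plin3 gave 0.00 ± 0.11.

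The fourth comparison asked how Aβ42 changed cells that also received AE1-329. Here 5 of 9 genes fell, where 12.2% of all genes fell and 22.0% changed in either direction. The median change was -0.39 for the 9 genes and 0.01 for all genes. Lpin1 fell 4.96-fold (-2.31 ± 0.08, adjusted p = 1.63e-10 in limma), to the values with both agents given above, against 9.96, 9.90 and 10.09 with AE1-329 alone. Pnpla2 fell by 0.51 ± 0.06 (adjusted p = 1.62e-05 in limma) and Plin2 by 0.51 ± 0.10 (adjusted p = 0.00196). Dgat1 fell by 0.58 ± 0.08 (adjusted p = 0.000101 in limma) and Lpin2 fell by 0.39 ± 0.05 (adjusted p = 6.23e-05), and for both all arrays with both agents lay below all arrays with AE1-329 alone. Plin3 changed by -0.27 ± 0.11 without passing (adjusted p = 0.125 in limma). It passed with the litter as a block (adjusted p = 0.0372), with only the 6 arrays of the 2 groups (0.0121) and without vehicle replicate 1 (0.00769).

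Whether the response to AE1-329 differed between cells with and without Aβ42 was tested as an interaction, which compares groups that share no array. It passed for Dgat1 and Lpin2, 2 of 9 genes, where 1.95% of all genes passed (1.03% with a positive and 0.918% with a negative interaction), and both were negative. The rise of Dgat1 was smaller by 0.67 ± 0.11 log2 units with Aβ42 (interaction -0.67, adjusted p = 0.00598 in limma), at 1.87-fold with Aβ42 and 2.98-fold without it. The interaction of Lpin2 was -0.46 ± 0.07 (adjusted p = 0.00396 in limma), with 1.35-fold and 1.86-fold. Litter by litter the interaction was -0.69, -0.68 and -0.65 for Dgat1 and -0.48, -0.40 and -0.50 for Lpin2. Lpin1 differed from these: its rise with AE1-329 was 0.50 with Aβ42 and 0.48 without it, an interaction of 0.02 ± 0.11 with a 95% interval of -0.21 to 0.26. The Lpin1 arrays with Aβ42 lay between 7.14 and 7.79, near the median of all genes, and how far these levels lie above background is unknown. For Pnpla2 the interaction was -0.01 ± 0.08 (95% interval -0.18 to 0.16), and for Plin2 it was 0.17 ± 0.14 (-0.13 to 0.48).

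**Figure D3:**
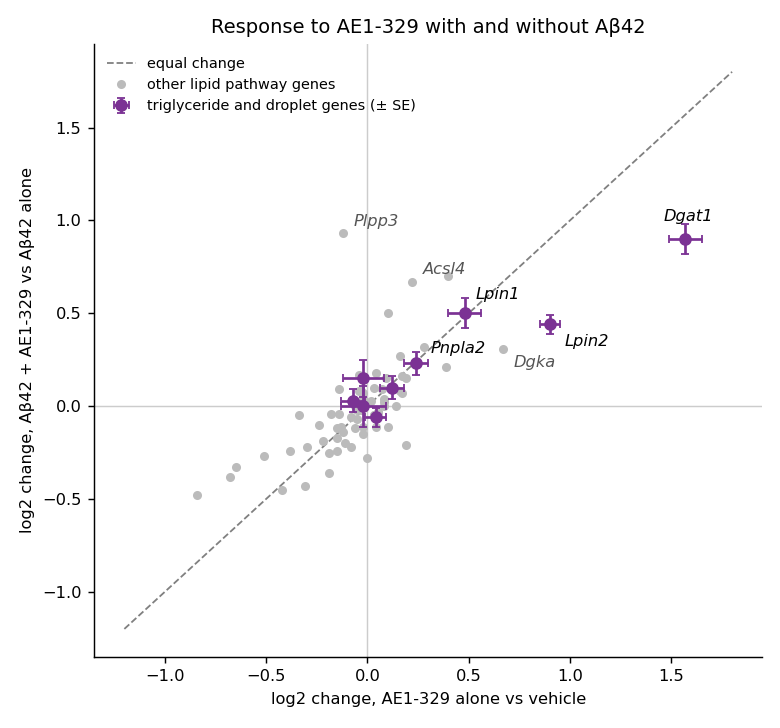
Log2 change with AE1-329 in cells given Aβ42 (vertical axis) against the change without Aβ42 (horizontal axis) for the 9 genes (purple, ± SE) and 67 other lipid genes (grey), with a dashed line of equal change. Dgat1 (1.57 and 0.90) and Lpin2 (0.90 and 0.44) lie below the line and Lpin1 (0.48 and 0.50) and Pnpla2 (0.24 and 0.23) close to it, while Plpp3 and Acsl4 lie above it.

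The combined treatment was also set against vehicle, a comparison added after the values were seen. Dgat1 rose 1.99-fold (1.00 ± 0.08, adjusted p = 5.88e-07 in limma) and Lpin2 1.42-fold (0.50 ± 0.05, adjusted p = 6.09e-06). Lpin1 fell 3.57-fold (-1.84 ± 0.08, adjusted p = 1.36e-09), Plin2 fell 1.45-fold (adjusted p = 0.00142) and Pnpla2 fell 1.20-fold (adjusted p = 0.00322). Thus 2 of 9 genes rose and 3 fell, where 9.27% of all genes rose, 11.9% fell and 21.2% changed in either direction. In order of group means, Dgat1 and Lpin2 were highest with AE1-329 alone, then with both agents, then with Aβ42 alone and in vehicle, and the last 2 did not differ beyond their spread. Lpin1 and Pnpla2 were highest with AE1-329 alone, then in vehicle, then with both agents, and lowest with Aβ42 alone. For these 2 genes every step between neighbours passed the test. The Pnpla2 steps with AE1-329, alone against vehicle or added to Aβ42, lost their call without some single arrays. Plin2 formed a lower pair, both agents (11.92 ± 0.13, SD, n = 3) and Aβ42 alone (11.77 ± 0.11), and a higher pair, AE1-329 alone (12.43 ± 0.04) and vehicle (12.45 ± 0.21), with no called difference within either pair. Plin3 did not pass against vehicle (-0.28 ± 0.11, adjusted p = 0.102 in limma), but passed with the litter block (adjusted p = 0.0284) and without vehicle replicate 1 (-0.44, adjusted p = 0.000608). Dgat2 (0.17 ± 0.06, adjusted p = 0.0676) passed only without vehicle replicate 2 (0.22, adjusted p = 0.0152).

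Lpin3, the third lipin gene, had group means from 6.23 with AE1-329 alone to 6.39 with both agents, and Gpat3 from 6.72 to 6.78. Neither passed in any of the 6 comparisons, and the widest difference of Lpin3, 0.16 ± 0.06 for both agents against AE1-329 alone, had an adjusted p of 0.0964 in limma. The products of the 3 lipin genes share 1 enzymatic reaction, but Lpin1 and Lpin2 had different patterns. Lpin1 fell with Aβ42 and rose with AE1-329. Lpin2 rose with AE1-329 and fell with Aβ42 when AE1-329 was present. Lpin3 did not pass, at levels below the median of all genes whose distance from background is unknown.

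Genes with the most similar pattern were sought as those with the smallest root mean square difference over the 12 arrays, each gene centred on its own mean. For Lpin1 they were Lpar6, a lysophosphatidic acid receptor gene (0.11 log2 units), the chemokine receptor gene Cxcr4 (0.13) and Rassf3 (0.22). Relative to its own mean, Lpar6 stood at -0.84 with both agents, -1.46 with Aβ42 alone, 1.35 with AE1-329 alone and 0.95 in vehicle, and Lpin1 at -0.91, -1.41, 1.40 and 0.92. For Dgat1 they were Ttc39b (0.10), Ramp3, a co-receptor gene of the calcitonin receptor family (0.17), and Pecam1 (0.18). For Lpin2 they were Tspan18 (0.08), Csf2rb2, a cytokine receptor subunit gene (0.08), and the kinase gene Nuak2 (0.10).

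Other genes of the same pathways were followed in lists of 70 genes, 67 of which were measured. With Aβ42 alone 14 of these rose, 17 fell and 36 did not pass, where 10.7% of all genes rose and 14.8% fell. Among genes above the median level tested alone, 47.4% were called in either direction. Of 10 other acyltransferases 5 rose and 5 did not pass (median 0.18), and the lysophosphatidate acyltransferase gene Agpat4 rose by 1.27 ± 0.07 (adjusted p = 1.70e-08 in limma). Agpat4 had 9.40, 9.46 and 9.48 log2 units with Aβ42 alone, against 8.22, 8.06 and 8.24 in vehicle. Of 11 genes of fatty acid uptake and activation 3 rose and 1 fell (median -0.01): the acyl-CoA synthetase genes Acsl5 (0.96 ± 0.07) and Acsl4 (0.44 ± 0.06) and the fatty acid binding protein gene Fabp3 (0.74 ± 0.08) rose, and Fabp4 fell by 0.62 ± 0.10. Of 12 genes listed for the phospholipid branch from diacylglycerol and phosphatidate 3 rose and 4 fell (median -0.06). Plpp1, a lipid phosphatase gene whose product also acts on phosphatidate, rose by 1.83 ± 0.07 (adjusted p = 3.08e-10 in limma). It had 10.99, 11.12 and 11.16 with Aβ42 alone, against 9.36, 9.21 and 9.23 in vehicle, opposite in direction to Lpin1. Dgkz, the gene of a kinase that turns diacylglycerol back into phosphatidate, fell by 1.07 ± 0.10, and by 0.52 in the mean of all its probe sets.

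Among 9 other lipolysis genes 4 fell and 1 rose with Aβ42 alone (median -0.01). Abhd5, whose product activates ATGL, fell by 0.28 ± 0.06 (adjusted p = 0.00313 in limma), in the same direction as Pnpla2, and the lipase genes Daglb and Abhd6 fell by 0.58 ± 0.08 and 0.35 ± 0.06. Of 15 other droplet protein genes 3 fell, 1 rose and 11 did not pass (median 0.12). Hsd17b11 fell by 0.41 ± 0.07, and Bscl2, the gene of seipin, which helps droplets to form, fell by 0.27 ± 0.05. Of 10 lipid transcription factor genes 5 fell and 1 rose (median -0.21). Pparg, the nuclear receptor gene of adipocyte lipid storage, fell by 0.80 ± 0.15 (adjusted p = 0.00106 in limma), Tfeb fell by 0.48 ± 0.07 and Foxo1 fell by 0.46 ± 0.05. Pparg had 9.66, 10.01 and 9.82 with Aβ42 alone, against 10.55, 10.71 and 10.64 in vehicle.

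With AE1-329 alone 4 of the 67 genes rose and 9 fell, where 4.71% of all genes rose and 5.45% fell. Among genes above the median level tested alone, 23.1% were called in either direction. All 15 other droplet protein genes did not pass (median 0.04). Of the 9 lipolysis genes 3 fell and 1 rose (median -0.15), with Mgll, the monoacylglycerol lipase gene, at -0.68 ± 0.09, Abhd5 at -0.51 ± 0.06 and the hormone-sensitive lipase gene Lipe at 0.39 ± 0.07. Abhd5 had 9.85, 9.77 and 9.84 log2 units with AE1-329 alone, against 10.21, 10.39 and 10.40 in vehicle, so that it fell where the gene of its partner ATGL rose. Of the uptake genes Fabp4 fell by 0.84 ± 0.10, Fabp3 fell by 0.42 ± 0.08 and Lpl, the lipoprotein lipase gene, fell by 0.31 ± 0.05. Dgka, another diacylglycerol kinase gene, rose by 0.67 ± 0.05 (adjusted p = 1.99e-06 in limma) and Plpp1 fell by 0.65 ± 0.07. Of the 10 other acyltransferase genes 1 fell and 9 did not pass, where Dgat1 had the largest change of the 9 listed genes.

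**Figure D4:**
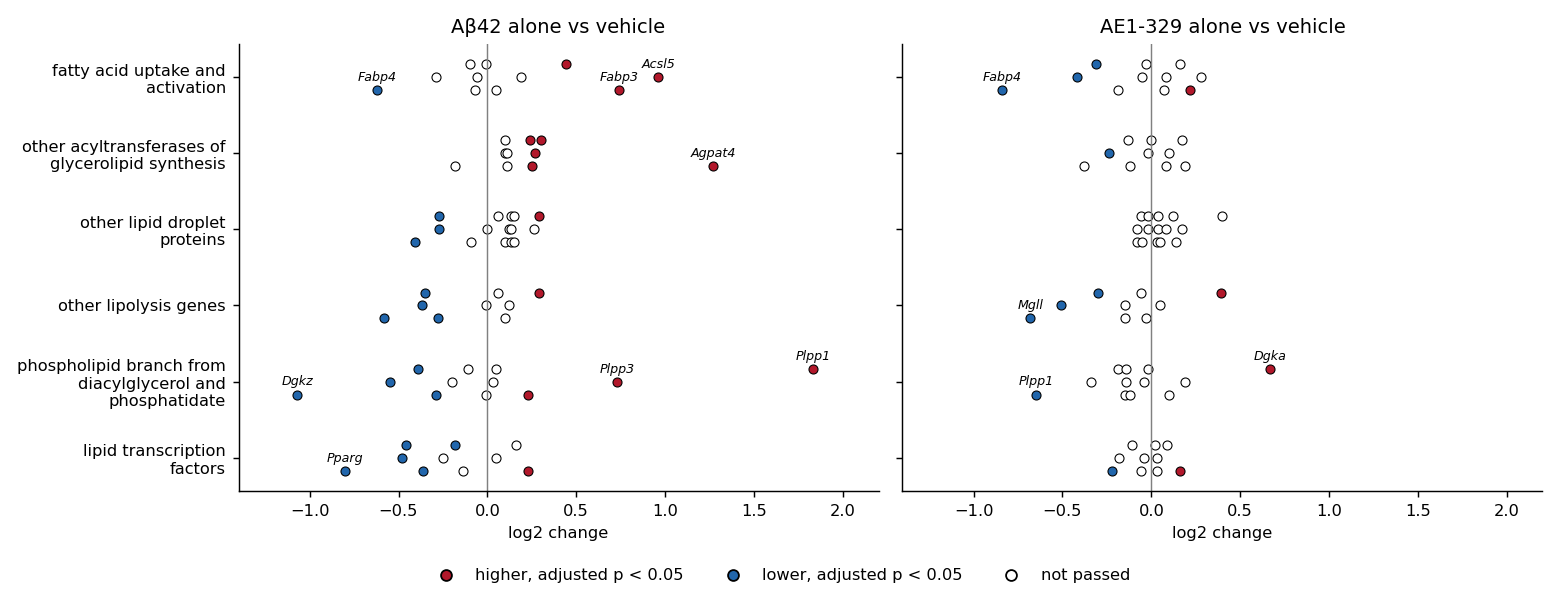
Log2 changes of 67 other lipid genes in 6 lists with Aβ42 alone (left) and AE1-329 alone (right), each against vehicle, where red marks genes called higher, blue genes called lower and white genes that did not pass. Plpp1 (1.83) and Agpat4 (1.27) lie farthest right with Aβ42, and on the right panel Dgka (0.67) lies farthest right and Fabp4 (-0.84) farthest left.

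In cells given Aβ42, 6 of the 67 genes rose with AE1-329 and 11 fell, where 5.99% of all genes rose and 5.04% fell. Of genes above the median level tested alone, 23.6% were called in either direction in this comparison. Hilpda, which encodes a droplet protein that inhibits ATGL, had 7.67, 7.63 and 8.04 log2 units with both agents, against 7.07, 7.17 and 6.99 with Aβ42 alone (0.70 ± 0.13, adjusted p = 0.00265 in limma). It was the only called gene of the 15 droplet protein genes there. With AE1-329 alone Hilpda changed by 0.40 ± 0.13 without passing (adjusted p = 0.0662 in limma), higher in 3 of 3 litters. Its interaction of 0.30 ± 0.18 did not pass either (adjusted p = 0.665 in limma). The Hilpda levels with Aβ42 alone lie below the median of all genes, and how far they lie above background is unknown. Plpp3 rose by 0.93 ± 0.12, Acsl4 by 0.67 ± 0.06 and Chpt1, which makes phosphatidylcholine from diacylglycerol, by 0.50 ± 0.08, and Lpl fell by 0.43 ± 0.05. With AE1-329 on both sides, 11 of the 67 genes rose with Aβ42 and 12 fell, where 9.77% of all genes rose and 12.2% fell. There 41.6% of genes above the median level tested alone were called in either direction. Plpp1 changed by 2.15 ± 0.07 and Pparg by -0.90 ± 0.15.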

How the data were processed

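The authors deposited 1 log2 value for each probe set on each of 12 Affymetrix Mouse Gene 1.0 ST arrays. The submitters' processing notes name Partek 6.5 and RMA but give them no role. That they are on a log2 scale was judged from their range (2.79 to 13.95, array medians 6.97 to 7.05). Genome build, filters and any litter correction: not given in the sources used here. This summary usually aligns arrays to each other, so changes are relative to the bulk of genes.

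Of 35556 probe sets, 21789 carried 1 gene symbol, 1621 several and 12146 none. Gene IDs of 21698 were matched to RefSeq (GRCm38.p6, names only), which left 19938 genes without a filter on dim ones. A limma model (version 3.58.1, R 4.3.3) held all 12 arrays with a mean per group (lmFit, eBayes, 8 residual and 4.54 prior degrees of freedom), and p-values, all two-sided, were adjusted by Benjamini-Hochberg over all genes within a comparison, with a threshold of 0.05. The fit was tested on simulated data drawn without a litter effect, so that test does not cover the pairing described below. The number of arrays limits the precision.

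The genes, lists, motifs and tests were chosen with earlier results of these data known. The text names the listed genes, up to 4 called genes of each pathway list per comparison (the text gives a part of these), and for the 3 listed genes with the widest range the 3 most similar genes. The design text ties replicates to 3 litters, so same-numbered arrays were taken as paired in the litter differences and the litter block. The main fit held no litter term, so its p-values are unpaired. The deviations of same-numbered arrays from their groups had a mean correlation of 0.33 (18 pairs, 0.0044 to 0.54, 17 above 0.1), across genes, which are not independent replicates. Each of the 12 arrays correlated best, on average, with arrays of its own number in the other groups. The alternatives were the litter as a block, the brighter genes only (above the median), averaging a gene's probe sets, all probe sets tested, quantile normalization again, only the groups compared, a robust prior with a trend, and leaving out each array.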

Additional observations from a re-analysis of the deposited data

Results flagged for a closer look

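The response to AE1-329 differed between cells with and without Aβ42 for some lipid genes, by the interaction test in limma. These were 2 of the 9 triglyceride and droplet genes and 3 of 67 other lipid genes. The test was passed by 1.95% of all genes, and by 5.02% of genes above the median level tested alone. Dgat1 (-0.67, adjusted p = 0.00598) and Lpin2 (-0.46, adjusted p = 0.00396) rose less with Aβ42 present. Plpp3, a lipid phosphatase gene, had an interaction of 1.05 ± 0.16 (adjusted p = 0.00397). It had 10.71, 10.59 and 10.43 log2 units with both agents, against 9.77, 9.69 and 9.49 with Aβ42 alone, and 8.95, 8.91 and 8.54 with AE1-329 alone, against 8.84, 9.06 and 8.84 in vehicle.

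Acsl4, an acyl-CoA synthetase gene that prefers arachidonate, had an interaction of 0.45 ± 0.08 (adjusted p = 0.0106). It rose by 0.67 ± 0.06 with Aβ42 present. Without Aβ42 it rose by 0.22 ± 0.06 (adjusted p = 0.0298), which no longer passed without any 1 of the arrays of AE1-329 alone, or without replicate 2 or 3 of vehicle (adjusted p 0.0749 to 0.0931), with all probe sets tested (0.0554) or with only the groups compared (0.152). Dgka had an interaction of -0.36 ± 0.07 (adjusted p = 0.0173), with a rise of 0.31 with Aβ42 and of 0.67 without it. That interaction did not pass, at adjusted p between 0.0512 and 0.0547, without replicate 1 or 3 of the combined treatment, replicate 2 or 3 of Aβ42 alone, or replicate 1 of AE1-329 alone.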

How the results depend on the processing

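Under the alternatives run, the count of called triglyceride and droplet genes stayed within 1.5 times its value in all 6 comparisons. Leaving out 1 array at a time gave 3 to 4 called genes for Aβ42 alone against vehicle and for either AE1-329 comparison, 5 to 6 for Aβ42 with AE1-329 against AE1-329 alone and against vehicle, and 2 to 2 for the interaction. With the replicate block the counts were 4, 4, 4, 6 and 2 in the 5 planned comparisons, with Plin3 the gene gained, and the block changed no other call of these genes. Over 54 results of the 9 genes and 999 values under alternatives, 953 kept direction and side of the threshold, 7 lost a call (all Pnpla2), 8 gained one and 31 changed sign, none of them of a called result. The sign changes lay near 0. Leaving out 1 array gave -0.05 to 0.05 for Plin3 and AE1-329 added to Aβ42, -0.14 to 0.05 and -0.18 to 0.08 for Plin2 and Plin3 with AE1-329 alone, and -0.05 to 0.02 for Gpat3 with both agents. For the interaction it gave -0.08 to 0.02 for Dgat2, -0.04 to 0.09 for Lpin1, -0.08 to 0.18 for Plin3 and -0.06 to 0.02 for Pnpla2. Quantile normalization again gave 0.00 for Plin3 and 0.01 for Gpat3. The cause was not tested. Dgat2, Lpin3 and Gpat3 dropped out when only genes above the median level were kept. In that setting 47.4% of the genes kept were called with Aβ42 alone, 23.1% with AE1-329 alone and 5.02% for the interaction. AE1-329 added to Aβ42 gave 23.6%, Aβ42 added to AE1-329 gave 41.6%, and both agents against vehicle gave 40.8%. Over all genes, the interaction was called for 389 genes as reported, 677 with the replicate block, 230 with all probe sets tested and 246 to 557 without 1 array. The counts more than 1.5 times lower without 1 array were 246 and 254 (without replicate 2 or 3 of Aβ42 alone) and 254 (without replicate 2 of AE1-329 alone). AE1-329 alone was called for 2026 genes as reported, 970 with only the groups compared, 1526 to 2520 under the other settings with all arrays and 1410 to 2345 without 1 array. How far each probe set lies above background is unknown.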
